A study of Mus musculus with 4 samples.

Results

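The heat shock proteins and molecular chaperones described here are the 84 genes, of 24063 gene symbols measured, whose symbols belong to the Hsp families (small heat shock proteins, HSP60 and HSP10, HSP70, HSP90 and HSP110), to the DNAJ A, B and C families, or to the CCT ring with Tcp1. They were chosen by symbol and not by a measured value, but earlier results of these data were known when members and lists were chosen. By the place where the protein is known to work, 48 were listed as cytosolic or nuclear, 8 as residents of the lumen of the endoplasmic reticulum (ER), 6 as ER membrane proteins and 8 as mitochondrial. A further 13 had another or an unsure place, and Cct8l1 was not placed.

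Poly-A RNA was sequenced from 4 mouse liver tumours, numbered 1, 5, 9 and 10 by the submitters. The tumours overexpress MYC, a transcription factor that drives growth, together with PMEPA1, a transmembrane protein known as a target and regulator of TGF-beta signalling. The DNA was delivered by hydrodynamic injection into the tail vein, which mainly reaches hepatocytes, in mice of strain C57BL/6 (C57BL6/J in the sample titles), and the animals had no treatment. All 4 libraries carry the same pair of genes, so there is 1 group and no control or normal liver, and every comparison below is between single tumours. The labels give no age or sex, do not name the mouse each tumour grew in, and list 8-10 passages, a term for cultured cells, so the spread between libraries may be in part technical.

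Chaperones bind proteins that are not yet folded, or have come unfolded, and keep them from aggregating. HSP70 proteins do so in cycles of ATP use that DNAJ proteins start and nucleotide exchange factors end, HSP90 proteins act on nearly folded clients such as kinases and receptors, and the HSP60 and CCT rings enclose a chain while it folds. Each of cytosol, ER and mitochondria has its own HSP70 and HSP90. Heat and proteotoxic stress raise the inducible cytosolic genes through HSF1, a load of unfolded protein in the ER raises the ER genes through ATF6 and XBP1, and hepatocytes, which secrete plasma proteins, carry much ER.

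The libraries held 41547938 to 51939623 counts summed over genes, which gives a limit of 0.0524 to 0.0892 CPM, the unit of counts scaled to a common library size, for a gene with 3 counts. CPM values use library sizes scaled by TMM, a method that sets the typical gene equal between libraries. The factor for tumour 10 was 0.802, against 1.03 to 1.10 in the others, and with total counts as the scale the typical gene would stand at 0.14, 0.04, 0.13 and -0.32 (log2) in tumours 1, 5, 9 and 10. A ratio of 2 genes within a tumour does not depend on this. Of 10 hepatocyte markers all were expressed, with albumin (Alb) at 4520 to 13400 CPM, and 8 of the 10 were highest in tumour 10. All 8 neutrophil and all 8 erythroid markers were highest in tumour 9, with summed levels of 535 and 1030 CPM there against 11.5 to 23.4 and 111 to 149 CPM elsewhere. The erythroid markers Hba-a1 and Hba-a2 had equal values in every tumour (257 CPM in tumour 9). They are thus not separate measurements, and the erythroid sum holds both. All 6 fibroblast markers and 6 of 8 proliferation markers were lowest in tumour 10. In bulk RNA of this kind, fewer cells of a type and less RNA per cell cannot be told apart.

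Of the 84 members, 71 had a mean of at least 1 CPM and are called expressed below. Dnajb13 passed through tumour 9 alone. The 13 others had means from 0 to 0.900 CPM: Dnajc5g and Hspb3 had no count in any tumour, Cct8l1, Dnajb8 and Dnajc5b had 1 or 2 counts in 1 tumour, and Dnajb3, Hspb2, Cct6b, Hspb9, Hspb7, Dnaja4, Dnajb7 and Hspa12a had between 3 and 72 counts per tumour. Several of these low members are known from testis, muscle or brain. The expressed set included all 8 ER luminal, all 6 ER membrane and all 8 mitochondrial members, with 39 of 48 cytosolic ones.

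Cytosolic chaperones made up the largest part of the chaperone mRNA. Members together took 2.41%, 2.07%, 1.95% and 1.52% of all counts in tumours 1, 5, 9 and 10. In CPM scaled by TMM their sums were 21861, 20040, 17752 and 19014, so the lowest tumour was 9 on that scale and 10 by share of counts. To compare genes, CPM was divided by transcript length in kb. On this scale the cytosolic members held 63.4% ± 2.5 of the summed level of all members (SD, n = 4 tumours), the mitochondrial ones 23.1% ± 1.7 and the ER luminal ones 10.9% ± 0.74. Hsp90ab1 by itself held 17.2% ± 1.3. ER membrane members held 0.821% ± 0.10.

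**Figure D1:**
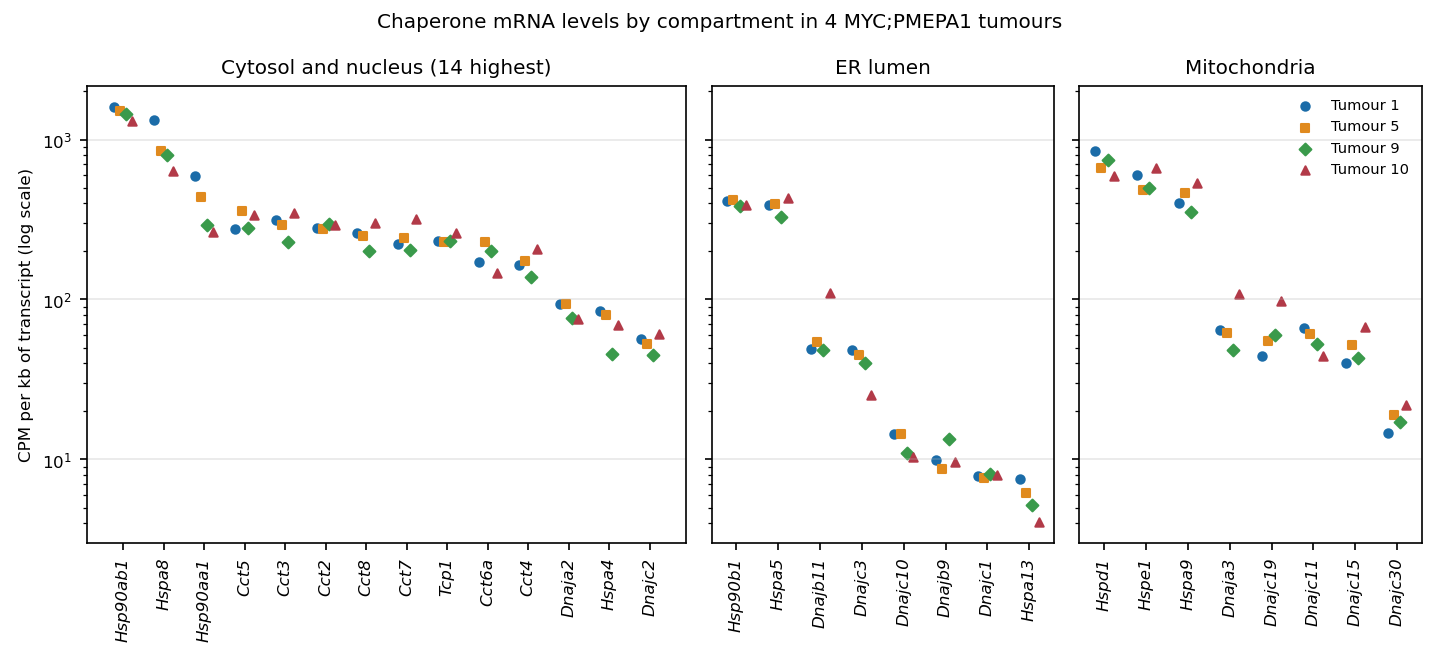
Level of each member in CPM per kb of transcript (log axis) in tumours 1, 5, 9 and 10, for the 14 highest cytosolic members and all 8 members of the ER lumen and of the mitochondria; each symbol is 1 tumour. Hsp90ab1 leads the cytosolic genes at 1305 to 1602, while the ER lumen is led by Hsp90b1 and Hspa5 and the mitochondria by Hspd1, Hspe1 and Hspa9, with a gap to the DNAJ members below them.

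The HSP90 genes divided into a steady and a variable kind. Hsp90ab1, the constitutive cytosolic HSP90, was the highest member in every tumour, at 4015, 3758, 3632 and 3272 CPM in tumours 1, 5, 9 and 10. Hsp90aa1, its inducible paralogue, stood at 1690, 1242, 831 and 749 CPM. Hsp90b1, the ER form known as GRP94, stood at 1133, 1161, 1052 and 1071 CPM. Tumour 1 was thus highest for both cytosolic genes, and the highest over the lowest tumour was 1.23 for Hsp90ab1, 2.26 for Hsp90aa1 and 1.10 for Hsp90b1. The ratio of the Hsp90aa1 level to the Hsp90ab1 level, both in CPM per kb, was 0.370, 0.291, 0.201 and 0.201 in tumours 1, 5, 9 and 10. That of Hsp90b1 to Hsp90ab1 lay between 0.256 and 0.297. Hsp90aa1 shares 58.5% of its 50-base words with transcripts of other genes, mostly pseudogenes, so its reads can be assigned in part to or from those copies.

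The 3 main HSP70 genes, one for each compartment, moved apart between tumours. Hspa8, the constitutive cytosolic HSP70 (HSC70), stood at 2806, 1791, 1692 and 1343 CPM in tumours 1, 5, 9 and 10. Hspa5, the ER form known as BiP, stood at 987, 994, 835 and 1090 CPM. Hspa9, the mitochondrial form mortalin, stood at 1226, 1416, 1072 and 1634 CPM. Tumour 1 was highest and tumour 10 lowest for Hspa8, while tumour 10 was highest and tumour 9 lowest for both organelle forms. The log2 deviation of Hspa5 from its mean was 0.16 in tumour 10. That is smaller in size than the typical shift of -0.32 there with total counts as the scale. With a trend in length and GC content over all genes taken out, the deviations of Hspa5 were 0.06, 0.09, -0.20 and 0.06, highest in tumour 5. Which tumour was highest for Hspa5 thus depends on the processing. In CPM per kb, the ratio of Hspa8 to Hspa9 was 3.31, 1.83, 2.28 and 1.19 in tumours 1, 5, 9 and 10, and that of Hspa8 to Hspa5 was 3.42, 2.17, 2.44 and 1.48. The ratio of Hspa5 to Hspa9 varied less, from 0.800 to 0.966. Of the 50-base words of Hspa8, 73.2% also occur in transcripts of other genes, so its level carries the same uncertainty as that of Hsp90aa1.

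Hspa1a and Hspa1b, the stress-inducible cytosolic HSP70 pair, were low, and their upstream sequences are shown because the genes are near copies that gave different patterns. They lie in the same orientation on chromosome 17 of GRCm38 (minus strand, 34969190 to 34972156 and 34956436 to 34959238 in GENCODE M21). The 250 bases before the start that RefSeq gives for each on GRCm38.p6, at chr17:34972157-34972406 for Hspa1a and chr17:34959239-34959488 for Hspa1b, are identical at 247 positions and differ at 3. Capitals mark the pair of heat shock half-sites GAANNTTC or TTCNNGAA, which is found in each 96 bases before the start.
Hspa1a: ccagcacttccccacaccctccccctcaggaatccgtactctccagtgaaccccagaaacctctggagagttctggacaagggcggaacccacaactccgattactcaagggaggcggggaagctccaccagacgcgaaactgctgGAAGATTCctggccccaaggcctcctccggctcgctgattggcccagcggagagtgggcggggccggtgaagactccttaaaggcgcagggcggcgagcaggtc
Hspa1b: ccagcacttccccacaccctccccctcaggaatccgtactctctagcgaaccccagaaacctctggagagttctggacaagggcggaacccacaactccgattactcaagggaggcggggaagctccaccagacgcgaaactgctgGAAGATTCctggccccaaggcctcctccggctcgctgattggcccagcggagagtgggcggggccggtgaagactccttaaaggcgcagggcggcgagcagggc

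Hspa1b stood at 22.0, 5.14, 7.07 and 11.7 CPM in tumours 1, 5, 9 and 10. Hspa1a stood at 3.08, 1.33, 5.19 and 3.06 CPM. Tumour 5 was lowest for both, but tumour 1 was highest for Hspa1b and tumour 9 for Hspa1a. The ratio of Hspa1b to Hspa1a in CPM per kb was 7.13, 3.84, 1.36 and 3.79. Of the 50-base words of Hspa1b, 62.3% also occur in Hspa1a, and how the authors' counting assigned such reads is not given in the sources used here. Against Hspa8, Hspa1b was a small part of the cytosolic HSP70 mRNA, with a ratio in CPM per kb of 0.00215 to 0.00650. Hspa1l, a neighbour of Hspa1a known from testis, stood at 3.22 to 8.67 CPM, but 71.9% of its exon bases lie opposite exons of Gm10501, and counting may not have used strand. Hspa2, a further testis HSP70, stood at 1.28 to 2.78 CPM.

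The HSP110 group and other exchange factors, which release ADP from HSP70, held the member with the widest range among those of at least 100 CPM on average. Hsph1, the heat-inducible HSP110, stood at 192, 119, 40.4 and 90.6 CPM in tumours 1, 5, 9 and 10, so that tumour 1 was 4.76 times tumour 9. Hspa4, its constitutive paralogue, stood at 392, 371, 212 and 324 CPM, also lowest in tumour 9. Hspa4l, the third HSP110 gene, stood at 28.4, 29.98, 7.44 and 34.6 CPM, so tumour 9 lay apart and the other 3 lay close together. In edgeR's quasi-likelihood test, which set tumour 9 against the mean of the rest, Hspa4l had a log2 fold change of -2.06 ± 0.42 (SE) with an unadjusted p of 0.0058 and an adjusted p of 0.32. For Hsph1 the log2 fold change was -1.73 ± 0.58, with an unadjusted p of 0.034 and an adjusted p of 0.59 in the same edgeR test. DESeq2's Wald test called Hspa4l in tumour 9 and limma-voom did not. The share of all genes that DESeq2 called is not given here. Hspbp1, an exchange factor that is no HSP110, stood at 48.04 to 81.4 CPM, and Hspa14, a ribosome-bound HSP70, at 51.6 to 92.4 CPM. Both were lowest in tumour 9. The high neutrophil and erythroid markers of tumour 9 moved with these low values, and their part in them was not tested.

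The heat-inducible cytosolic list holds Hspa1a, Hspa1b, Hsph1, Dnajb1, Hspb1, Hsp90aa1, Dnaja4 and Dnajb4, of which 7 were expressed. Their median log2 deviation from each gene's own mean over the 4 tumours was 0.66, -0.02, -0.41 and 0.10 in tumours 1, 5, 9 and 10, against -0.01, 0.00, -0.04 and 0.02 for the 13129 expressed genes of the whole table. None of the 7 passed the test of 1 tumour against the other 3. Tumour 1 was highest for 4 of them (Hspa1b, Hsph1, Dnajb1 and Hsp90aa1), beside 21.4% of all genes. Dnajb1, the DNAJ partner of inducible HSP70, stood at 42.5, 24.8, 19.0 and 20.04 CPM, and its log2 fold change in tumour 1 against the rest was 0.997 ± 0.38 (SE; edgeR, unadjusted p = 0.048, adjusted p = 0.67). Hspb1, the small heat shock protein HSP25, stood at 9.78, 11.1, 4.47 and 9.01 CPM and was lowest in tumour 9. Of the 50-base words of Hspb1, 58.9% also occur in Hsp25-ps1. Dnajb4 did not follow tumour 1, with 27.4 CPM there and 22.1 to 31.4 CPM in the others. Hspb1 and Hspa1a thus differed from Hspa1b in which tumour was highest, and the list did not move as a block.

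**Figure D2:**
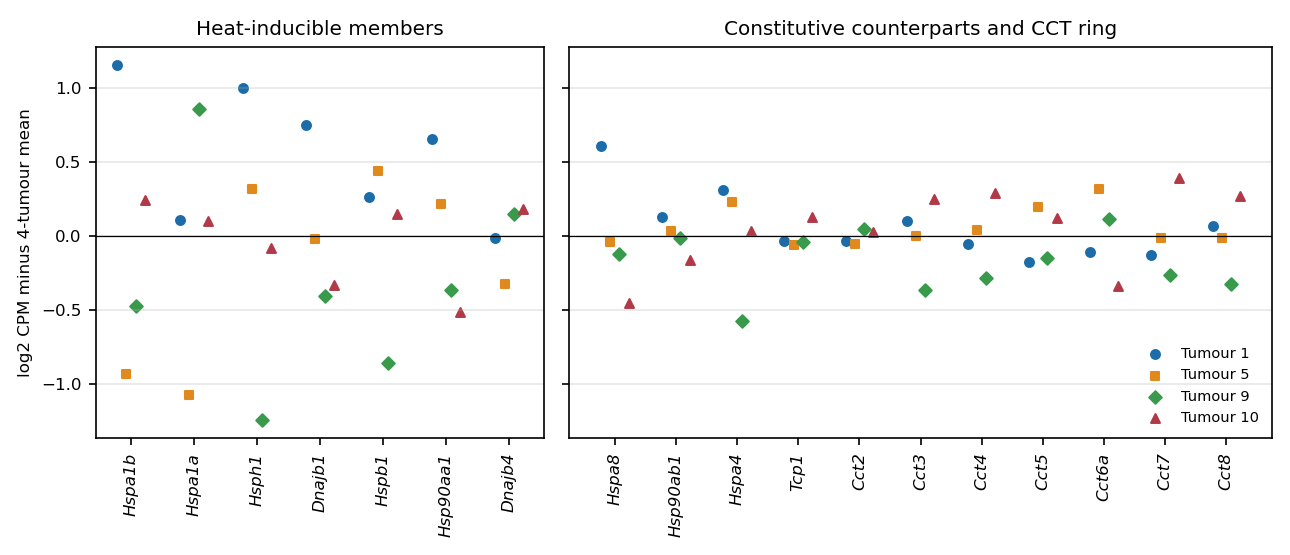
Log2 CPM minus each gene's mean over the 4 tumours for the 7 expressed heat-inducible members (left) and for 3 constitutive counterparts with the 8 CCT ring genes (right); each symbol is 1 tumour. Tumour 1 is the highest for Hspa1b, Hsph1, Dnajb1 and Hsp90aa1, and also for Hspa8, while all points of the CCT genes lie between -0.36 and 0.40.

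Hsf1, the transcription factor that drives heat-inducible genes, stood at 74.2, 69.6, 34.3 and 58.0 CPM in tumours 1, 5, 9 and 10, lowest in tumour 9. Of the 7 expressed heat-inducible members, 3 (Hsph1, Dnajb1 and Hspb1) were also lowest there, 3 (Hspa1a, Hspa1b and Dnajb4) in tumour 5 and Hsp90aa1 in tumour 10, and Hspa1a was highest in tumour 9. Hsf2 stood at 31.3, 23.5, 32.0 and 37.7 CPM. Genes of the immediate early response, which handling of a tissue is known to raise, had median deviations of -0.15, -0.96, 0.91 and 0.18, with 5 of 8 highest in tumour 9, 2 in tumour 10 and 1, Junb, in tumour 1. Their part in the heat-inducible values was not tested. Muscle markers had their highest median deviation in tumour 1, at 0.98, with a summed level of 72.7 CPM against 20.8 to 36.6 CPM elsewhere, and their part in the inducible values was not tested either.

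A heat shock half-site pair was looked for on both strands in the 250 bases before each start in RefSeq's table, which holds 69 of the 84 members. The pair GAANNTTC or TTCNNGAA occurred in 6 of the 7 heat-inducible genes with an entry (Dnajb1 had none), in 17 of the 69 members and in 14.5% of 27025 genes. The longer form of 3 half-sites, which adds GAA or TTC after a further 2 bases and so holds the pair, occurred in Hspd1, Hspe1 and Dnajb6 among members and in 0.514% of all genes. For Hspd1 and Hspe1 it is the same site read on opposite strands. It lies before an Hspd1 start at 55087932, and none was found before the Hspd1 start at 55088243. Such a match is a description of letters and not of binding, and the list was made from genes known to respond to heat. The E-box CACGTG, the motif that MYC is known to bind, occurred in 6 of the 69 members (Hsph1, Dnajb9, Dnajc1, Dnajc16, Hspd1 and Hspbap1) and in 6.86% of all genes.

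Partners of cytosolic HSP70 and HSP90 outside the Hsp names were mostly lowest in tumour 9. Of 22 cytosolic cochaperones, all expressed, 14 were lowest in tumour 9, beside 25.5% of all genes, and 11 highest in tumour 10, beside 35.8%. Among genes with a mean of at least 100 CPM, 700 of 2091 were lowest in tumour 9 and 1074 highest in tumour 10. The median deviations of the 22 cochaperones were 0.10, 0.03, -0.35 and 0.22. The neutrophil and erythroid markers were highest in tumour 9 and 8 of 10 hepatocyte markers in tumour 10, and their part in these values was not tested. Fkbp4, an HSP90-binding immunophilin and the highest of them per kb, stood at 890, 890, 474 and 514 CPM in tumours 1, 5, 9 and 10. Chordc1, an HSP90 cochaperone and the most variable, stood at 88.6, 57.9, 33.7 and 73.8 CPM, with the same highest and lowest tumours as Hsph1. Bag3, which links HSP70 to small heat shock proteins and is itself known as heat-inducible, varied little, from 27.2 to 35.6 CPM. None passed the test of 1 tumour against the rest after adjustment.

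The 8 subunits of the CCT ring, which folds actin and tubulin, were present at like levels. In CPM per kb the means ran from 171 ± 28 for Cct4 to 313 ± 41 for Cct5 (SD, n = 4), and within a tumour the highest subunit was 1.93 to 2.38 times the lowest. Cct5 stood at 487, 630, 497 and 600 CPM in tumours 1, 5, 9 and 10. Cct7 had the widest range, with 544, 591, 497 and 784 CPM, and Cct2 the narrowest, with 546, 541, 579 and 572 CPM. The subunits were not highest in the same tumour: 5 were highest in tumour 10, Cct5 and Cct6a in tumour 5, and Cct2 in tumour 9. Over all genes, 35.8% were highest in tumour 10. All 8 subunits had a mean of at least 100 CPM. Of the 2091 genes at that level, 1074 were highest in tumour 10. The median deviations of those genes were -0.09, 0.04, -0.13 and 0.18 in tumours 1, 5, 9 and 10. Cct6a was lowest in tumour 10, at 317 CPM against 372 to 499 CPM. The median deviations of the ring were -0.04, 0.00, -0.20 and 0.19, and the value in tumour 10 is smaller than the 0.32 that total-count scaling would take from it. Prefoldin, the complex that hands chains to CCT, had median deviations of 0.05, -0.02, -0.02 and 0.03 over its 6 subunits. Pfdn6, its highest subunit per kb and its most variable, stood at 81.2, 80.8, 78.1 and 175 CPM.

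The ER luminal genes turned on Hspa5 and Hsp90b1, whose levels per kb were near each other. The ratio of Hspa5 to Hsp90b1 in CPM per kb was 0.948, 0.933, 0.864 and 1.11 in tumours 1, 5, 9 and 10. Upstream stretches of Hspa5, Hsp90b1 and Dnajc3 are shown because these 3 of the 7 ER luminal genes in RefSeq's table hold the ER stress element, the motif through which ATF6 is known to act. It was searched as CCAAT, 9 bases of any kind and CCACG on both strands of the 250 bases before the start, and is in capitals. Only 35 of 27025 genes (0.130%) held it, and among members no cytosolic and no mitochondrial gene with an entry did. Of 9 other ER folding genes with an entry, Pdia6, Calr, Canx and Creld2 held it. Bases that GENCODE M21 places in an exon are left out, apart from at most 30 around a motif. The stretches lie on GRCm38.p6 at chr2:34772020-34772049 (plus strand, in an annotated exon of Hspa5), chr10:86705510-86705694 (minus strand, upstream of Hsp90b1) and chr14:118937682-118937931 (plus strand, upstream of Dnajc3).
Hspa5: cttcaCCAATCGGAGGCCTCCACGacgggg
Hsp90b1: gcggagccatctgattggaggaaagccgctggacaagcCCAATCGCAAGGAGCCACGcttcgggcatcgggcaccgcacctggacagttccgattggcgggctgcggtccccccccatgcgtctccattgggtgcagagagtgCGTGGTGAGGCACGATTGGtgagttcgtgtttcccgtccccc
Dnajc3: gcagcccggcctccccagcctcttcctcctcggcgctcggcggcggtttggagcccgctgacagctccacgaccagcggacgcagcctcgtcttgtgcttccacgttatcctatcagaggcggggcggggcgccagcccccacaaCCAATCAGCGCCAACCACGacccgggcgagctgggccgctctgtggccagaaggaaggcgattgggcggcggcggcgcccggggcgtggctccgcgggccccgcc

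Of the 3 ER luminal genes with this element, Dnajc3 varied the most. Hsp90b1 and Hspa5 had highest over lowest ratios of 1.10 and 1.31, while Dnajc3, the BiP cochaperone and inhibitor of eIF2-alpha kinases known as P58IPK, stood at 253, 235, 209 and 132 CPM in tumours 1, 5, 9 and 10. In tumour 10 against the rest its log2 fold change was -0.81 ± 0.26 (SE; edgeR, unadjusted p = 0.026, adjusted p = 0.54). Dnajb11, the luminal BiP cochaperone ERdj3, in which the element was not found, stood at 98.8, 108, 96.7 and 221 CPM, so tumour 10 was 2.29 times tumour 9. Its log2 fold change there was 1.13 ± 0.22 (SE; edgeR), and no gene of the table passed that test after adjustment. DESeq2's Wald test called Dnajb11 in tumour 10 and limma-voom did not. The share of all genes that DESeq2 called is not given here. The ratio of Dnajb11 to Hspa5 in CPM per kb was 0.127, 0.138, 0.146 and 0.257. After a trend in length and GC content over all genes was taken out, the deviation of Dnajb11 in tumour 10 was 0.68 in place of 0.85, and that of Dnajc3 -0.45 in place of -0.61. The part of the hepatocyte markers, 8 of 10 of which were highest there, was not tested.

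The other 4 ER luminal members were lower. Dnajc10, the reductase ERdj5, stood at 42.3 to 58.6 CPM, and Dnajb9, the ERdj4 that is known as a strong XBP1 target, at 18.4, 16.2, 25.0 and 17.9 CPM, highest in tumour 9. Xbp1 itself stood at 158, 149, 196 and 108 CPM, also highest there, and Atf6 at 62.0, 70.3, 96.0 and 63.4 CPM. Hspa13, an HSP70 of the microsomes, stood at 31.6, 25.6, 21.5 and 16.9 CPM, with the same order of tumours as Dnajc3. Dnajc1 stood at 38.8 to 41.3 CPM and was the only expressed member that did not differ between tumours beyond counting error; 14.8% of its exon bases lie opposite Mllt10.

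Folding partners of BiP outside the Hsp names included Sdf2l1 and Sil1, which like Dnajb11 were highest in tumour 10. Sdf2l1, known to bind ERdj3 in the lumen and the most variable of 12 ER partners, stood at 67.9, 57.7, 44.1 and 230 CPM in tumours 1, 5, 9 and 10. Sil1, the exchange factor of BiP, stood at 35.9, 47.2, 36.1 and 104 CPM. P4hb, protein disulfide isomerase and the highest of them per kb, stood at 947, 1189, 1456 and 1380 CPM. Hyou1, the ER relative of HSP110 and the other exchange factor of BiP, was lowest in tumour 9 (148 CPM) and not highest in tumour 10 (180 against 241 and 235 CPM in tumours 1 and 5). Of the 12, 6 were lowest in tumour 9, beside 25.5% of all genes, and 5 highest in tumour 10, beside 35.8%. Among genes with a mean of at least 100 CPM, 700 of 2091 were lowest in tumour 9 and 1074 highest in tumour 10. The median deviations of the 12 were 0.04, -0.01, -0.21 and 0.13. The ER stress gene Ddit3, which encodes CHOP, stood at 15.1 to 25.1 CPM.

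The 6 ER membrane DNAJ proteins, several of which serve degradation of ER proteins, were at 9.53 to 65.5 CPM on average. Dnajc16 had the widest spread, with 25.4, 39.1, 17.4 and 17.4 CPM in tumours 1, 5, 9 and 10. Dnajb14 stood at 6.60, 10.7, 9.98 and 10.9 CPM, with tumour 1 apart from the rest. Dnajc14 stood at 60.6, 59.2, 59.2 and 83.1 CPM, with tumour 10 apart, but 27.6% of its exon bases overlap exons of Ormdl2 and Sarnp. Dnajb12, the paralogue of Dnajb14, stood at 35.2 to 48.7 CPM and Dnajc25 at 23.8 to 28.1 CPM. Dnajc18 stood at 16.4 to 20.9 CPM.

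Mitochondrial chaperones were led by Hspd1 (HSP60) and its lid Hspe1 (HSP10), which form the folding chamber of the matrix. Both genes start from a shared region on chromosome 1 in opposite directions, in RefSeq's annotation Hspd1 from 55088243 on the minus strand and Hspe1 from 55088148 on the plus strand, so that the 2 gene spans share 96 bases there. GENCODE M21 starts Hspe1 at 55088132. The 30 bases at chr1:55088053-55088082 (GRCm38.p6, plus strand) are shown because they hold 2 overlapping matches of the heat shock element of 3 half-sites, in capitals, and lie upstream of Hspe1 and inside an exon of Hspd1 as GENCODE M21 annotates it.
Hspe1: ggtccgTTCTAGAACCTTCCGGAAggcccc
Hspd1 stood at 1963, 1545, 1741 and 1378 CPM in tumours 1, 5, 9 and 10. Hspe1 stood at 460, 371, 383 and 507 CPM. Tumour 10 was thus lowest for Hspd1 and highest for Hspe1. In CPM per kb the ratio of Hspd1 to Hspe1 was 1.41, 1.37, 1.496 and 0.895, so tumour 10 lay below the rest. Of their 50-base words, 44.8% for Hspd1 and 36.1% for Hspe1 also occur in other genes, mostly pseudogenes. Hspe1, with a transcript of 768 bases, is the shorter gene, and in tumour 10 short transcripts stood higher over all genes, with a Spearman rho of -0.27 between log2 deviation and length over 12929 genes, which are not independent replicates. After a trend in length and GC content was taken out, the deviation of Hspe1 in tumour 10 was -0.09 in place of 0.25, and that of Hspd1 -0.39 in place of -0.25. The direction for Hspe1 thus turned with that adjustment, and with total-count scaling it was -0.07.

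Hspa9, the motor HSP70 of import, and its partners were higher in tumour 10 in part. With total counts as the scale, however, the deviation of Hspa9 there was -0.011 in place of 0.31. With length and GC content adjusted, that deviation was 0.26. The ratio of Hspa9 to Hspd1 in CPM per kb was 0.479, 0.702, 0.472 and 0.909 in tumours 1, 5, 9 and 10. Dnaja3, the matrix DNAJ protein Tid1, stood at 171, 164, 128 and 287 CPM, a log2 fold change of 0.89 ± 0.26 in tumour 10 against the rest (SE; edgeR, unadjusted p = 0.019, adjusted p = 0.48). Dnajc19, a J-protein of the import motor, stood at 56.8, 70.4, 76.9 and 125 CPM (0.88 ± 0.26; edgeR, unadjusted p = 0.019, adjusted p = 0.48). Dnajc15, a relative of Dnajc19, stood at 26.1, 33.5, 27.9 and 43.4 CPM. Dnajc11, a protein associated with the cristae junction complex, went against them, with 194, 179, 154 and 130 CPM. Dnajc30 stood at 17.0 to 25.5 CPM, highest in tumour 10, but 26.2% of its exon bases lie opposite exons of Bud23.

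The 8 mitochondrial members had median deviations of -0.09, -0.01, -0.11 and 0.30 in tumours 1, 5, 9 and 10. Of the 8, 6 were highest in tumour 10, beside 35.8% of all genes. Among genes with a mean of at least 100 CPM, 1074 of 2091 were, with a median deviation there of 0.18. Adjustment for length and GC content brought the mitochondrial median in tumour 10 to 0.04, and total-count scaling to -0.02. Dnaja3 kept 0.59 and Dnajc19 0.41 of their 0.68 and 0.67 after the length and GC adjustment, while Dnajc15 kept 0.06 of 0.44. The hepatocyte markers had a median deviation of 1.90 in tumour 10, and their part in these values was not tested. Of 9 mitochondrial partners 7 were highest in tumour 10, beside the same 2 shares, 35.8% and 1074 of 2091. Trap1, the mitochondrial HSP90 and the highest of them per kb, stood at 297, 305, 306 and 815 CPM, and Clpx, the unfoldase of the matrix protease ClpXP and the most variable, at 84.6, 112, 121 and 268 CPM. Lonp1, the main matrix protease, stood at 278 to 342 CPM. Atf5, known for its role in the mitochondrial unfolded protein response, stood at 146, 104, 211 and 125 CPM, so it was not highest in tumour 10.

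**Figure D3:**
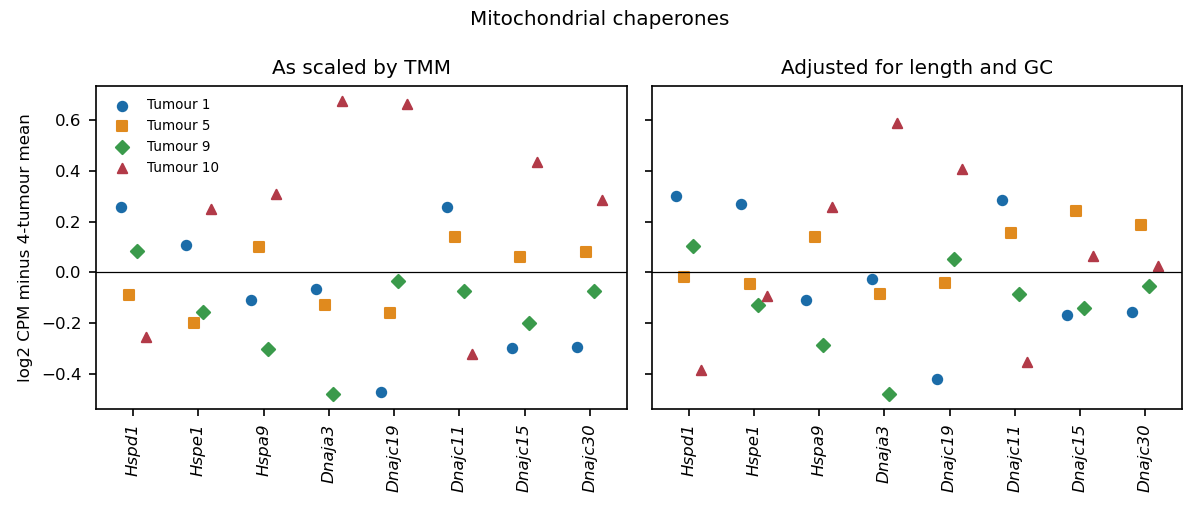
Log2 CPM minus the 4-tumour mean for the 8 mitochondrial members, as scaled by TMM (left) and after a trend in transcript length and GC content over all genes was removed in each tumour (right); each symbol is 1 tumour. Tumour 10 is highest for 6 members on the left. Of these, Dnaja3, Dnajc19 and Hspa9 keep most of their height on the right while Hspe1, Dnajc15 and Dnajc30 do not.

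Set side by side, the ratios of the compartments differed by up to 1.29-fold between tumours. The summed level of ER luminal members, in CPM per kb, was 0.152, 0.170, 0.172 and 0.196 of that of cytosolic members in tumours 1, 5, 9 and 10. For mitochondrial members it was 0.335, 0.333, 0.374 and 0.422. Tumour 10 was highest for both ratios, and the ratio of ER luminal to mitochondrial members stayed between 0.452 and 0.510. The cytosolic sum itself was 6189, 5592, 4859 and 5040 CPM per kb, highest in tumour 1. Median deviations were 0.11, 0.04, -0.17 and 0.05 for the 39 cytosolic members and 0.03, 0.05, -0.09 and -0.07 for the 8 ER luminal ones. Both the level of the ratios and their spread between tumours depend on which members and rows are summed, as given in the closing section. Without members that have copies, such as Hspa8 and Hsp90aa1, the ER luminal to cytosolic ratio differed less between tumours. The mitochondrial to cytosolic ratio then differed more. Tumour 10 stayed highest for both. The gap from tumour 10 to its nearest neighbour was 0.4997 of the whole range for the log2 ratio of ER luminal and 0.504 for that of mitochondrial to cytosolic members, so neither set tumour 10 apart from the rest by the measure used in the closing section.

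**Figure D4:**
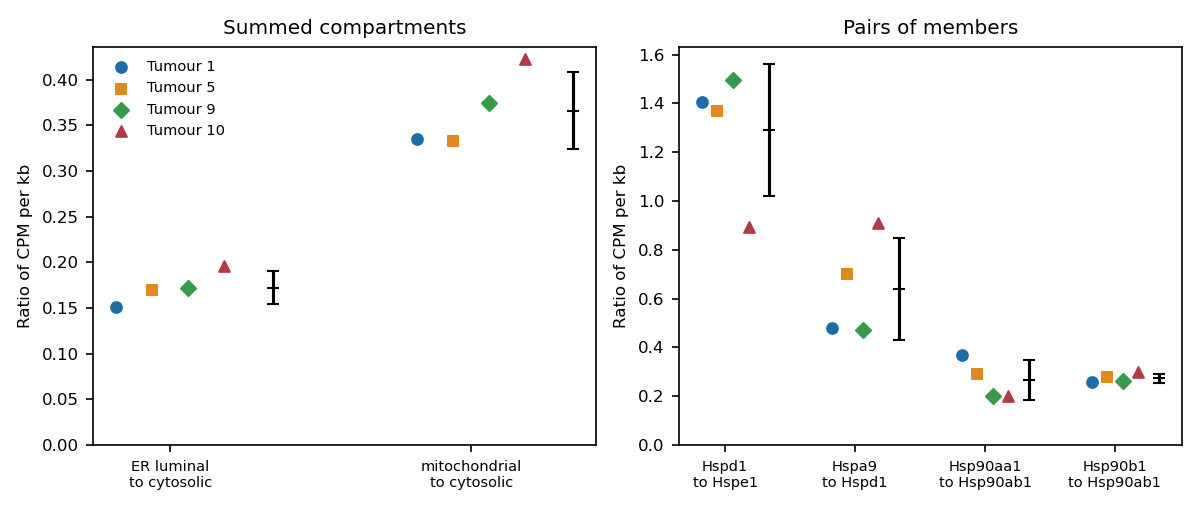
Ratios of levels in CPM per kb within each tumour, on linear axes from 0: summed ER luminal and mitochondrial members over summed cytosolic members (left) and 4 pairs of members (right). Coloured symbols are tumours and black bars the mean ± SD of the 4; tumour 10 is highest for both summed ratios and lies below the rest for Hspd1 to Hspe1.

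The small heat shock proteins, which hold unfolded chains without ATP, contained the most variable member. Hspb8, the partner of Bag3 in selective autophagy (chromosome 5, minus strand, 116408491 to 116422864, GRCm38), stood at 11.01, 94.3, 1.21 and 0.357 CPM in tumours 1, 5, 9 and 10. The order was wide apart at each step, and tumour 5 was 264 times tumour 10. In edgeR's test of tumour 5 against the rest the log2 fold change was 4.49 ± 1.64 (SE, unadjusted p = 0.044, adjusted p = 0.65). Of the 6 cholangiocyte markers on the list, 3 were likewise highest in tumour 5. Krt19, the most variable, stood at 1.45, 11.5, 0.428 and 0.0297 CPM, Epcam at 1.19, 9.71, 0.484 and 0.178 CPM, and Prom1 at 11.8, 40.0, 2.77 and 0.595 CPM, each in the same order of tumours as Hspb8. The other 3 were highest in tumour 1: Spp1 at 33.5 CPM, Sox9 at 2.31 CPM and Krt7 at 0.996 CPM, against 17.0, 1.004 and 0.257 CPM in tumour 5. The summed level of the 6 was 51.2, 79.4, 15.5 and 13.9 CPM, and their part in the Hspb8 values was not tested. Bag3 had no such range. Hspb6 stood at 2.95 to 5.95 CPM, and Hspb11, a small protein of cilia transport, at 3.16 to 6.72 CPM, both highest in tumour 10.

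Among the remaining DNAJ genes, Dnajc6 had the widest range, with tumour 9 at 117 times tumour 10. Dnajc6 encodes auxilin, which with HSC70 strips clathrin from vesicles and is known from neurons (chromosome 4, plus strand, 101496648 to 101642799). It stood at 25.8, 4.76, 65.9 and 0.565 CPM in tumours 1, 5, 9 and 10, an order unlike that of Hspb8, with tumour 9 highest. In tumour 10 its log2 fold change was -5.82 ± 1.98 (SE; edgeR), and no gene of the table passed that test after adjustment. DESeq2's Wald test called Dnajc6 in tumour 10 and limma-voom did not. The share of all genes that DESeq2 called is not given here. Dnajc13, an endosomal partner of HSC70 (RME-8), stood at 110, 113, 54.4 and 57.9 CPM, so tumours 1 and 5 lay together above tumours 9 and 10. Dnajc28 stood at 3.27, 2.31, 4.002 and 10.4 CPM and was highest in tumour 10. Hspbap1, an HSPB1-associated protein, stood at 23.2, 23.1, 31.3 and 46.2 CPM. Dnajb13, a radial spoke protein of sperm and cilia, stood at 0.612, 0.374, 2.05 and 0.981 CPM, and Foxj1, the regulator of motile cilia, was also highest in tumour 9, at 3.33 CPM. Dnajb13 counts as expressed through tumour 9 alone, and 11.8% of its exon bases lie opposite exons of Ucp2. Of the 8 cilia and sperm markers Foxj1 was the only one expressed, and Prm2 and Tnp1 had no count, so the part of such cells was not tested.

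The DNAJ genes that remain had narrower ranges than Dnajc6. Among them Dnajb5, Dnajc12 and Dnajb2 still had highest over lowest ratios of 2.75, 2.60 and 2.12. Dnaja1 and Dnaja2, the main partners of HSC70, stood at 154 to 243 and 213 to 267 CPM, both highest in tumour 1, and the ratio of Dnaja1 to Dnaja2 in CPM per kb was 0.361 to 0.463. Dnajc7, a bridge between HSP70 and HSP90, stood at 112 to 129 CPM, and Dnajc2, a ribosome-bound partner of Hspa14, at 92.3 to 123 CPM. Dnajc8, a splicing factor, Dnajc9, a histone chaperone, and Dnajc21, which serves ribosome assembly, stood at 57.4 to 84.7, 38.4 to 53.5 and 44.0 to 57.5 CPM and were each highest in tumour 5. Dnajb6, a suppressor of aggregation, stood at 58.6 to 79.4 CPM, and Dnajb2, known from neurons, at 11.8 to 25.1 CPM. Of their 50-base words, 41.9% for Dnajb6 and 30.6% for Dnaja1 also occur in other genes. Dnajc22 was among the steadiest of all members, at 109 to 118 CPM, and Dnajc5, the cysteine string protein, stood at 91.4 to 121 CPM. The remaining expressed members were lower: Dnajc17 at 10.2 to 12.9 CPM, Dnajc24, which serves diphthamide synthesis, at 10.0 to 12.0 CPM, and Dnajc27 at 5.95 to 14.1 CPM. Dnajc12, a cochaperone of the aromatic amino acid hydroxylases, stood at 3.42 to 8.89 CPM, Dnajc4 at 6.38 to 9.43 CPM, Dnajb5 at 1.54 to 4.25 CPM and Hspa12b, known from endothelium, at 2.24 to 4.30 CPM.

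Measured against the whole table, the expressed members had a lower median spread between tumours, with members on both sides of the median of all genes. A Poisson test of counting error called 70 of 71 expressed members (98.6%), beside 98.7% of 13129 expressed genes, so this share says nothing particular of chaperones. With a technical variation of 5% added it called 63 of 71, beside 94.1% of genes, and the 8 not called were Hsp90b1, Dnajc1, Dnajc25, Cct2, Tcp1, Dnajc7, Dnajc24 and Dnajc22. An SD of log2 CPM of at least 1 was reached by 3 members (Hspb8, Dnajc6 and Hspa4l; 4.23%), beside 16.6% of genes. With 1 tumour left out that count ranged from 4 to 6, with 6 without tumour 10 and 5 without tumour 1. A highest over lowest ratio of at least 2 was reached by 26 members (36.6%), beside 49.9% of genes, and one of at least 4 by 7 members, beside 19.9%. The median SD was 0.28 log2 units for expressed members and 0.45 for all expressed genes. Among genes with a mean of at least 100 CPM it was 0.24 for 28 members and 0.36 for 2091 genes, and whether this difference holds beyond expression level was not tested.

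**Figure D5:**
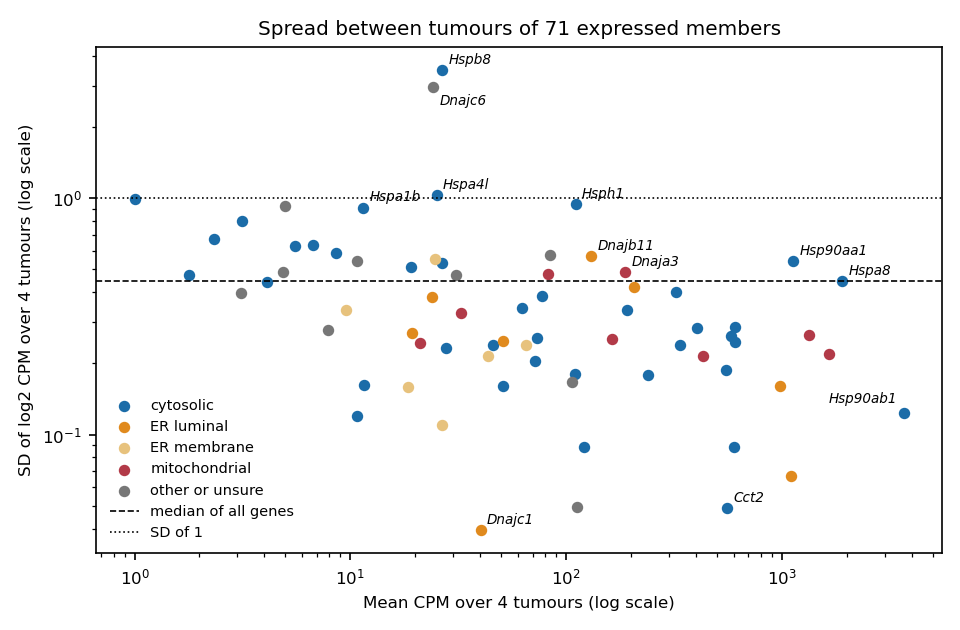
SD of log2 CPM over the 4 tumours against mean CPM for the 71 expressed members (both axes log), coloured by compartment; the dashed line is the median SD of all expressed genes and the dotted line an SD of 1. Hspb8 and Dnajc6 lie far above the dotted line, and most members, with Cct2 and Dnajc1 lowest, lie below the dashed one.

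No member was called in edgeR's test of 1 tumour against the other 3 at an adjusted p under 0.05, nor was any gene of the table (0% of 13129). At an unadjusted p under 0.05 the same edgeR test gave 1 member in tumour 1 (Dnajb1, higher), beside 0.716% of all genes (0.427% higher and 0.289% lower). It gave 1 member in tumour 5 (Hspb8, higher), beside 0.922% of genes (0.617% higher and 0.305% lower). It gave 2 in tumour 9 (Hspa4l and Hsph1, both lower), beside 5.66% of genes (3.76% higher and 1.9% lower), and 7 in tumour 10, beside 22.1% (13.9% higher and 8.23% lower). The 7 were Dnajb11, Dnaja3, Dnajc19, Dnajc28 and Hspbap1, higher, and Dnajc3 and Dnajc6, lower, so 9.86% of expressed members passed in the tumour where 22.1% of genes did. DESeq2's Wald test called Hspa4l in tumour 9 and Dnajb11 and Dnajc6 in tumour 10, and limma-voom called 0. Of the 71, 17, 15, 8 and 31 were highest in tumours 1, 5, 9 and 10, beside 21.4%, 21.2%, 21.6% and 35.8% of genes, which compares with 23.9%, 21.1%, 11.3% and 43.7% of members. The lowest value lay in these tumours for 12, 17, 24 and 18 members, or 16.9%, 23.9%, 33.8% and 25.4%, beside 21.8%, 20.3%, 25.5% and 32.4% of genes. Of the 28 members with a mean of at least 100 CPM, 13 were highest in tumour 10 and 14 lowest in tumour 9. For the 2091 genes at that level the counts were 1074 and 700. Adjusted within tumour 10 alone, the edgeR test called 1.75% of genes and 0 members. These tests set 1 library against 3 and assume that the lone tumour varies like the others. For DESeq2's Wald test the share of all genes called is not given here. Its calls of members therefore cannot be set beside the whole table.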

How the data were processed

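Each tumour has 1 deposited table with a row per RefSeq transcript. Per the file headers it holds the authors' read counts, FPKM and TPM. The counts are whole numbers, not normalized, and the deposited FPKM and TPM values divide them by transcript length and depth. Per the submitters' processing notes FastQC 0.11.8 and GRCm38 were used. The aligner, counter and strand setting: not given in the sources used here. Some reads were counted on more than 1 row of a gene, since rows such as those of Hspa5 carry equal counts, so each of 24063 symbols was represented by its row with the highest mean count. For Dnajc5 and Hspa13 that row has a non-coding accession. Transcript lengths were recovered from the counts and FPKM and gave whole numbers of bases.

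Counts were scaled by TMM and tested with edgeR 4.0.16 in R 4.3.3, on genes with a mean of at least 1 CPM. Each tumour was set against the other 3 by the quasi-likelihood test, with Benjamini-Hochberg adjustment over all genes and 4 tumours and a threshold of 0.05. Log2 values used a prior count of 2, and deviations are from a gene's mean over the tumours. Differences beyond counting error came from a Poisson test, with and without 5% technical variation. DESeq2 1.42.0 and limma 3.58.1 were alternatives, with other scalings, filters, row choices, left-out tumours and, added after seeing the data, a length and GC trend and the removal of members with copies. The scripts, in R and Python 3.11.15, were tested on simulated data.

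Members and lists were chosen with earlier results of these data known. Values per tumour are given for the 4 highest members per kb of the cytosolic, ER luminal and mitochondrial sets, the 3 most variable of each set, paralogue sets, and the highest and most variable gene of each partner list. Values of other genes, among them Hsph1, Hspa4, Dnajb1, Hspb1, Sil1, Hyou1, Xbp1, Hsf1 and Dnajc11, were chosen after their values were seen. Upstream sequences are from RefSeq's table for GRCm38.p6, gene positions and exons from GENCODE M21, and 50-base words from GENCODE transcripts. Counting intervals cover counting error only.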

Additional observations from a re-analysis of the deposited data

Results flagged for a closer look

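In 5 expressed members and 1 ratio, a single tumour stood apart, by the gap to its nearest neighbour as a share of the whole range over the 4 tumours. For Dnajc14 in log2 CPM the gap to tumour 10, the highest, was 0.934 of the range. For Tcp1 it was 0.873, also with tumour 10 highest, although its range was narrow (574 to 655 CPM). Its deviation in tumour 10 was 0.13, but 0.019 with length and GC content adjusted, and -0.19 with total counts as the scale. Of the exon bases of Tcp1, 23.3% lie opposite exons of Acat3. For Hspa4l it was 0.871, with tumour 9 lowest. For Dnajb11 it was 0.861, with tumour 10 highest. For Dnajb14 it was 0.830, with tumour 1 lowest. For the log2 ratio of Hspd1 to Hspe1 it was 0.830, with tumour 10 lowest. Chance would give such a gap in about 1 in 20 groups. Among all 13129 expressed genes 7.01% had one, and among the 71 expressed members 7.04%, so the share of members was near that of the table.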

How the results depend on the processing

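No paired analysis was possible because there is only 1 group. The count of members beyond counting error was 63 to 77 over all alternatives. Members with an SD of at least 1 numbered 4 to 6 with 1 tumour left out, against 3. DESeq2's Wald test called 1 member in tumour 9 and 2 in tumour 10, where edgeR called 0. The share of all genes that DESeq2 called is not given here. With total counts as the scale, the cytosolic median deviation was 0.25 in tumour 1, -0.031 in tumour 9 and -0.27 in tumour 10. The ER luminal one was then 0.17, 0.043 and -0.39, and the mitochondrial one in tumour 10 was -0.022. With length and GC content adjusted, the medians in tumour 10 were -0.081 (cytosolic), -0.16 (ER luminal) and 0.044 (mitochondrial). The ER luminal median in tumour 9 was -0.12 to -0.012 with 1 tumour left out. The ER luminal to cytosolic ratio in tumours 1, 5, 9 and 10 was 0.214, 0.239, 0.237 and 0.293 with rows summed, 0.115, 0.129, 0.134 and 0.160 without the highest member of each compartment, 0.18, 0.203, 0.207 and 0.226 without division by length, and 0.226, 0.226, 0.227 and 0.243 without members that have copies. The mitochondrial ratio was 0.152, 0.170, 0.156 and 0.216 without members that have copies. It was 0.268 in tumour 1 and 0.315 in tumour 9 without the highest members, and 0.283, 0.320 and 0.354 in tumours 1, 9 and 10 without division by length. Tumour 10 had the highest ratio in each of these settings. Of 708 values of single members under the alternatives, 680 moved by less than the spread between tumours and 28 by more, and 7 turned in sign. These values did not cover all 4 tumours of each member, so the counts leave out shifts in other tumours. The causes were not tested.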
